A study of Homo sapiens with 3 samples.

Results

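The DEAD-box and DEAH-box RNA helicases, named DDX and DHX, were described in SW48 cells that carried an empty vector, a DDX3 plasmid, or the DDX3 plasmid with a YAP1 knockdown plasmid. Members were all array probes whose single gene symbol was DDX or DHX followed by a digit, with pseudogenes left out. There were 72 such probes, for 53 genes (37 DDX and 16 DHX), of 24658 probes with 1 gene symbol for 18282 genes, and of 31741 probes in all. Of these genes, 35 had 1 probe, 17 had 2 probes and 1 had 3 probes. A further 3 probes carried a DDX symbol beside other symbols and were not used.

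SW48 is an established human colorectal cancer cell line. Total RNA of stable cells kept under G418 for 4 weeks was labelled with Cy5 and measured on 1-colour arrays, with 1 sample for the vector pcDNA3.1, 1 for the DDX3 overexpression plasmid and 1 for the DDX3 plasmid together with the YAP1 knockdown plasmid. Per the labels each sample holds 2 technical replicates, and they do not say whether the stable cells were 1 clone or a pool. No library carried the knockdown plasmid alone, so an effect of that plasmid that does not depend on DDX3 cannot be told apart. With 1 sample in each group no difference has a replicate check, and no test or p-value is given. Differences were taken in a plasmid comparison (library labelled DDX3 minus vector), a YAPsi comparison (library labelled DDX3+YAPsi minus library labelled DDX3) and a joint comparison (library labelled DDX3+YAPsi minus vector). These names follow the labels only, and the comparisons share libraries pairwise.

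Values are intensities scaled to a common 75th percentile across the 3 libraries, and differences are on the log2 scale, so that 1 is 2-fold. The floor is the median of all probes of a library, at scaled intensities of 378, 382 and 411 in the libraries labelled vector, DDX3 and DDX3+YAPsi. A probe counts as measured in a comparison when it reached the floor in both libraries. Precision is limited by the number of arrays, and intensities are not compared between probes. Of the colon epithelial markers, CDX2, CDH1, EPCAM, KRT19 and LGALS4 reached the floor in all libraries, KRT8 did so in the vector library and the library labelled DDX3 alone, and VIL1 did so in none. Of the markers of other cell types, CD14 and COL1A1 reached it in all libraries and VWF in both libraries labelled with the DDX3 plasmid, while PTPRC, CD3E, PECAM1, COL1A2, DCN and ALB stayed below it. The summed intensity of the 12 probes of that second list was 4784, 4213 and 5526 in the same order of libraries, and its part in the results below was not tested.

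DEAD-box and DEAH-box proteins are ATPases that unwind short RNA duplexes or remodel complexes of RNA and protein, and they are named for the amino acids of a conserved motif of the ATP-binding site. They act from transcription and splicing through export and ribosome assembly to translation and decay. DDX3X itself favours the translation of mRNAs with structured leaders, and its plasmid is the treatment here. YAP1 is a coactivator of transcription that the Hippo pathway restrains, and it reaches DNA through TEAD factors.

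To show sequence beside the values, the promoters of the helicase genes were read from RefSeq (GRCh38.p14) over the 250 bases before the annotated start, and 48 of the 53 genes had such a window. DDX18, DDX49, DDX52, DHX33 and DHX58 had no entry. The windows shown are those of DDX3X, of DDX47, which had the largest helicase difference in the YAPsi comparison, and of DDX21 and DDX5, each with a probe among the lowest there. The other probes of DDX21 and DDX5 were at -0.16 and 0.39 in that comparison. Capitals mark matches on either strand to GGAATG, the TEAD core, CACGTG, the E-box bound by MYC, or CCGGAAG, an ETS factor core.
DDX3X, chrX:41333058-41333307 (+ strand): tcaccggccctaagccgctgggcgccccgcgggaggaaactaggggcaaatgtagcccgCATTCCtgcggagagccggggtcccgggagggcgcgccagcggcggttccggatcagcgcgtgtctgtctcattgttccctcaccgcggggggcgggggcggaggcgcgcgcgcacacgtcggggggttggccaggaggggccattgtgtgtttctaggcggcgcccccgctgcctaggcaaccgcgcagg
DDX47, chr12:12813096-12813345 (+ strand): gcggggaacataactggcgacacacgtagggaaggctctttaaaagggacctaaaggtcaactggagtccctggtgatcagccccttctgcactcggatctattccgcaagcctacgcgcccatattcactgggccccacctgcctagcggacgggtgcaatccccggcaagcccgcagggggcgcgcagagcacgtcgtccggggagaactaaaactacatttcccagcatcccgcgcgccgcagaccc
DDX21, chr10:68955920-68956169 (+ strand): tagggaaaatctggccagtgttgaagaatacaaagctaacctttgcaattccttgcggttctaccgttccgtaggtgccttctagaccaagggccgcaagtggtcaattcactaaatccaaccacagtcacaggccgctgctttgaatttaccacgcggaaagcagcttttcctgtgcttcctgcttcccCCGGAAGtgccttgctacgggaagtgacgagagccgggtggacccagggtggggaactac
DDX5, chr17:64506639-64506888 (- strand): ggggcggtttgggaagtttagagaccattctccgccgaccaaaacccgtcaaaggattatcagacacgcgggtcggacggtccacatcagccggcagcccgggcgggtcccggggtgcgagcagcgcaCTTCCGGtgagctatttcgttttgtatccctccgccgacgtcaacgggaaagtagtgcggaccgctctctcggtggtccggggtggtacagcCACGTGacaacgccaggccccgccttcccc

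Of the 48 helicase windows, DDX3X alone held GGAATG, which is 2.08% of them, beside 11.9% of all 27305 promoter windows of the same length. CCGGAAG was found in 15 helicase windows (31.2%), beside 8.82% of all windows, and CACGTG in 7 (14.6%), beside 6.49%. TATAAA, the TATA box, was found in the window of DHX32 alone, beside 11.1% of all. GGAATG and CCGGAAG share the letters GGAA, but 1 GGAA on 1 strand cannot belong to both. Each match is a description of the letters in the window. The set of all windows holds 1 start per gene and was not limited to genes on the array or above the floor. The shares are thus not matched for expression. The window of DDX47 held none of the 4 motifs.

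DDX3X was covered by 2 probes, which went apart. Scaled intensities by probe PH_hs_0028290 were 1975, 879 and 813 in the libraries labelled vector, DDX3 and DDX3+YAPsi, and the values of each probe follow in this order from here on. It was thus highest in the vector library and close to level between the other libraries. Its log2 differences were -1.17 in the plasmid, -0.11 in the YAPsi and -1.28 in the joint comparison. Probe PH_hs_0048661 had 49549, 57967 and 48085, with differences of 0.23, -0.27 and -0.04. Neither probe was raised to a degree that bears out the label, and probe positions were not given, so whether a probe lies inside the plasmid insert was not tested. YAP1 likewise was not lower after scaling, by its 1 probe, in the library named for its knockdown, with 18298, 20279 and 20768. Its deposited intensities were 22713, 21983 and 15434. Without scaling all measured probes shifted by -0.53 in the YAPsi comparison. SIX2, a homeobox transcription factor and no target of either plasmid by the labels, did differ between the libraries, with 9353, 20057 and 7243. Its differences were 1.10 in the plasmid, -1.47 in the YAPsi and -0.37 in the joint comparison, so it was highest in the library labelled DDX3. The DDX3X probes disagreed in the plasmid comparison, and the YAP1 probe was not lower after scaling. A library is therefore spoken of here as labelled DDX3 or labelled DDX3+YAPsi, and each direction below depends on those labels.

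The gap between the DDX3X probes was wide for this array. Among 2140 genes with exactly 2 measured probes, the differences of both probes in the plasmid comparison lay a median of 0.23 apart and 95% lay within 0.72, whereas the DDX3X probes lay 1.39 apart. In the joint comparison the DDX3X gap was 1.24, beside a 95% limit of 0.82 over 2083 genes. In the YAPsi comparison it was 0.16, beside a median of 0.21 over 2100 genes. The wide gaps thus lay in both comparisons with the vector library. Of the close relatives of DDX3X, the Y-linked DDX3Y and the germ cell helicase DDX4, with 2 probes, lay below the floor in every library.

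**Figure D1:**
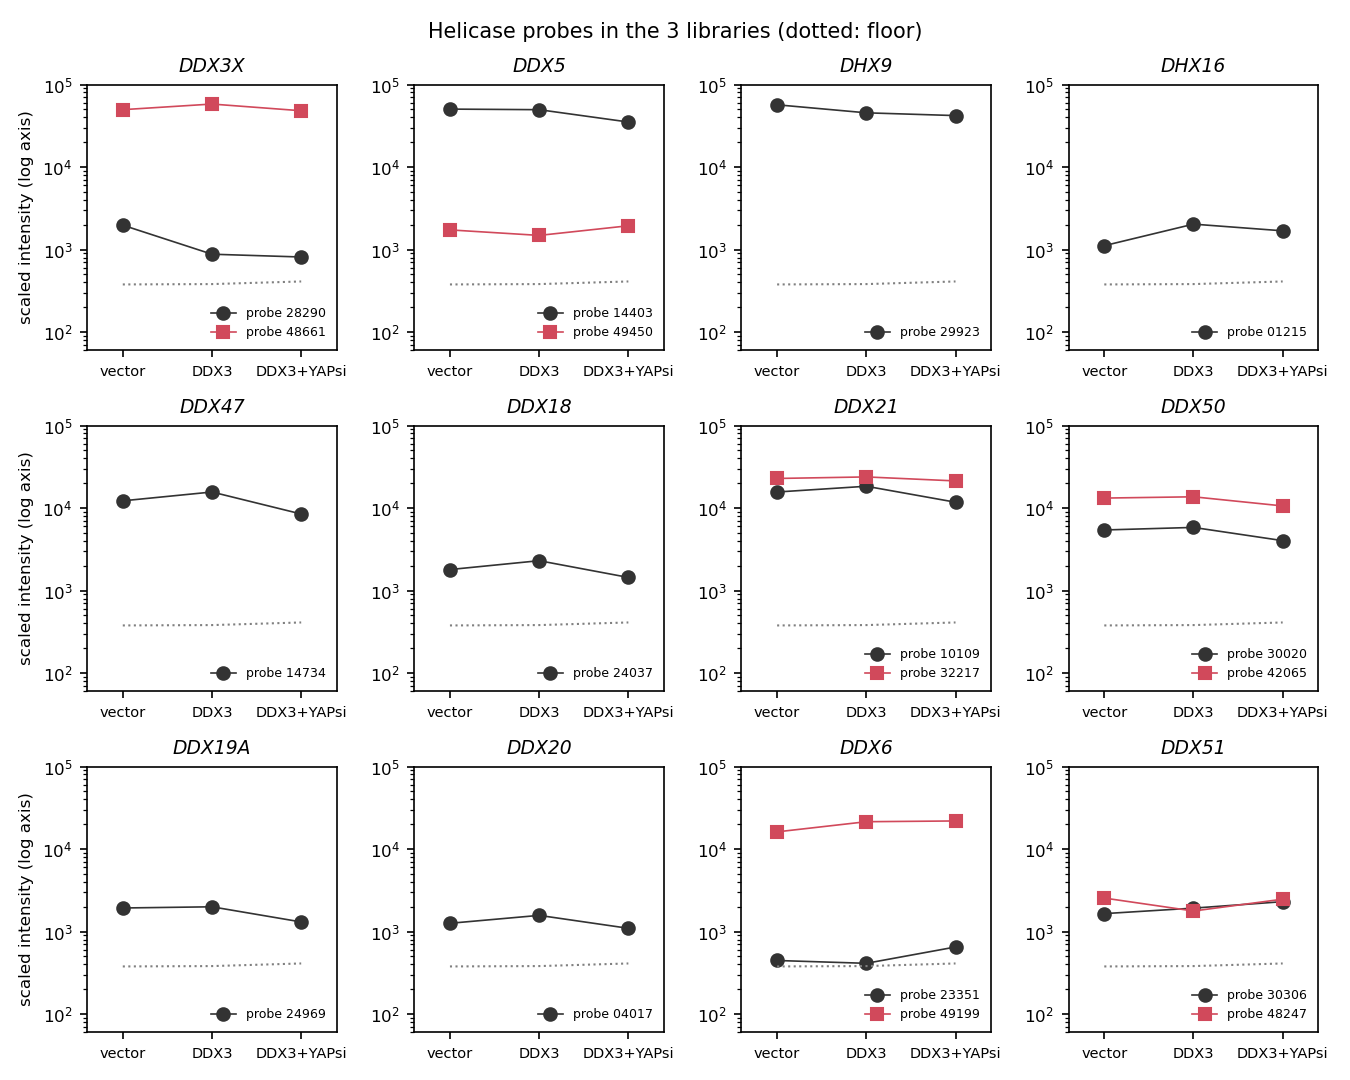
Scaled intensity (log axis) of each probe of 12 helicase genes in the vector, DDX3 and DDX3+YAPsi libraries, 1 sample each; lines join the values of 1 probe, and the dotted line is the floor. DDX3X probe PH_hs_0028290 goes from 1975 to 879 and 813, while DDX47 goes from 15641 to 8468 between the libraries labelled DDX3 and DDX3+YAPsi.

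Most helicases reached the floor in SW48 cells, which is a rank within the library and no test of detection. By at least 1 probe, 41 of the 53 genes (77.4%) reached the floor in all libraries, beside 57% of all genes, and 52 of the 72 probes (72.2%) did so, beside 52.5% of all probes with 1 symbol. A gene with more probes had more chances to reach it. The same 52 probes were measured in each comparison. Another 16 probes stayed below the floor in all libraries, and 4 reached it in some. The 9 genes below it by every probe were DDX3Y, DDX4, DDX25, DDX26B (member by old symbol, now INTS6L), DDX43, DDX53, DDX60, DDX60L and DHX29. Among them DDX4, DDX25, DDX43 and DDX53 are known as germ cell or cancer-testis genes, and all 6 probes of that list were below the floor.

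In the plasmid comparison few helicases differed, and in bulk RNA fewer cells with a transcript and less of it per cell cannot be told apart. Of 52 measured probes none was at least 2-fold higher (0.251% of all 13161 measured probes were) and 1 was at least 2-fold lower (0.243% of all), the DDX3X probe PH_hs_0028290. At 1.5-fold, 1 probe was higher (2.55% of all), that of DHX16, and 1 was lower (2.36% of all), that of DDX3X again. The median over the 52 probes was 0.05, beside -0.01 over all probes, with 28 above 0 (48.8% of all were) and 24 below (51.2% of all). These shares are near those of all probes. Without scaling 18 lay above 0 and 34 below, with a median of -0.15, beside -0.20 over all probes.

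In the YAPsi comparison more helicase probes lay below 0 than above. The median was -0.11, beside 0.02 over all 13109 measured probes. Of the 52 probes 37 lay below 0 (47.8% of all did) and 15 above, which is 28.8% of them (52.2% of all). None was at least 2-fold higher or lower (0.221% of all in each direction). At 1.5-fold, 4 were lower (3.16% of all), those of DDX47, DDX18, DDX19A and 1 probe of DDX21, and 1 was higher (2.9% of all), a probe of DDX6. The middle of the set lay between -0.25 and 0.03 by its quartiles, beside -0.20 and 0.24 for all probes.

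In the joint comparison the helicase median was -0.09, beside 0.02 over all 13098 measured probes. There 17 probes lay above 0 (52.4% of all) and 35 below (47.6% of all), and without scaling 0 lay above and 52 below, with a median of -0.83 beside -0.72 over all probes. None was at least 2-fold higher (0.397% of all) and 1 was at least 2-fold lower (0.382% of all), again the DDX3X probe PH_hs_0028290. At 1.5-fold DHX16 was the 1 higher probe (4.27% of all) and DDX3X the 1 lower (4.03% of all).

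**Figure D2:**
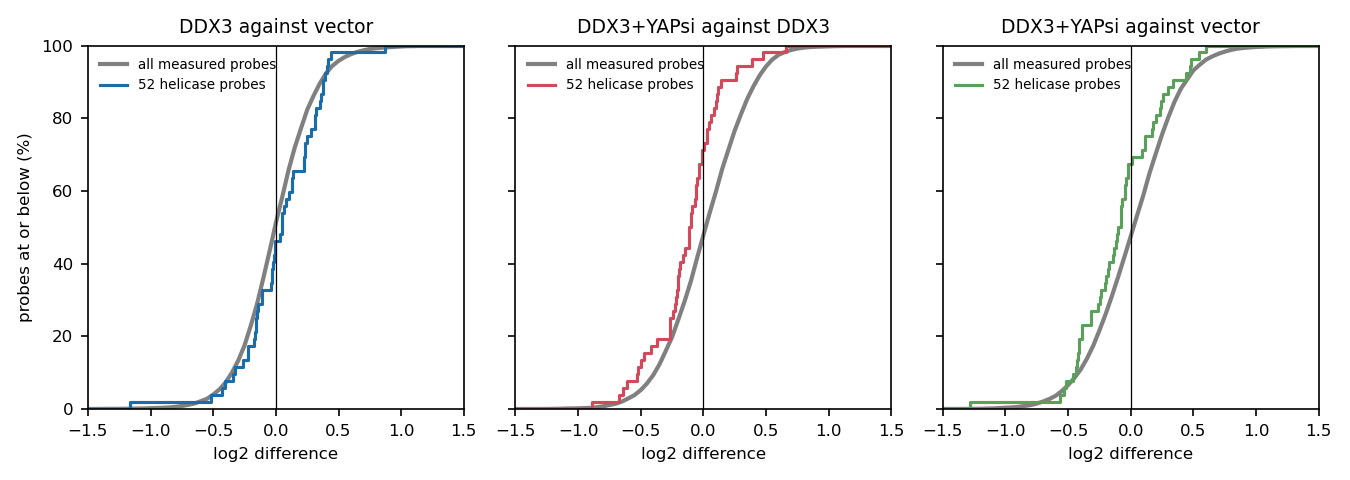
Share of probes (%) at or below each log2 difference, for the 52 helicase probes (coloured) and all measured probes with 1 gene symbol (grey), in each comparison. The helicase curve lies left of the grey curve near 0 in the YAPsi comparison, where 37 of 52 probes were below 0. It also does so in the joint comparison, with 67.3% of helicase and 47.6% of all probes at or below 0. In the plasmid comparison, where 24 were below 0, it lies somewhat to the right, with 65.4% and 77.2% at or below 0.2.

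Ordered over the libraries, 27 of the 52 helicase probes were lowest in the library labelled DDX3+YAPsi, which is 51.9% of them, beside 34.7% of 12940 probes measured in all libraries. That library was highest for 7 (13.5%, beside 38.8% of all). The library labelled DDX3 was highest for 25 (48.1%, beside 29.7%) and lowest for 12 (23.1%, beside 33%), and the vector library was highest for 20 (38.5%, beside 31.5%) and lowest for 13 (25%, beside 32.3%). The range of a probe over the libraries had a median of 0.34 for helicases and 0.34 for all probes. It was under 0.25 for 18 of the 52 helicase probes (34.6%, beside 31.1% of all).

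The helicases of ribosome assembly act in the nucleolus on the precursor of ribosomal RNA. All 15 genes of the list were measured, by 20 of 21 probes. In the YAPsi comparison 15 of the 20 lay below 0, near the 37 of 52 over all helicases and above the 47.8% of all probes. Their median was -0.17, beside -0.11 for all helicases, and their range ran from -0.89 to 0.48. At least 1.5-fold lower were 3 of the 20, of 4 among the 52 helicase probes and 3.16% of all probes: those of DDX47 and DDX18 and 1 of DDX21, which is also in the coregulator list. In the plasmid comparison 13 of the 20 lay above 0 (48.8% of all), with a median of 0.06.

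DDX47, needed for early processing of pre-ribosomal RNA, had 12227, 15641 and 8468. It was 1.85-fold lower in the YAPsi comparison (-0.89) and at 0.36 in the plasmid comparison. DDX18, the human counterpart of yeast Has1, had 1798, 2301 and 1443, with the same order of libraries and differences of 0.36 and -0.67. Both genes rest on 1 probe, and in both the library labelled DDX3 was highest and the library labelled DDX3+YAPsi lowest. Both were named for their low values in the YAPsi comparison, so this order follows in part from the choice. The library labelled DDX3 also enters both the plasmid and the YAPsi comparison.

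DDX21, a nucleolar helicase that acts at genes of RNA polymerase I and II, had 15639, 18360 and 11762 by probe PH_hs_0010109. By probe PH_hs_0032217 it had 22818, 23822 and 21307. Both probes ordered the libraries alike, but their differences in the YAPsi comparison were -0.64 and -0.16. DDX50, a close relative of DDX21, had 5422, 5823 and 4027 by probe PH_hs_0030020 and 13202, 13682 and 10604 by probe PH_hs_0042065. Its differences were -0.53 and -0.37, so both probes placed DDX3+YAPsi below the other libraries. Because DDX21 and DDX50 are similar in sequence, a probe of one may also bind RNA of the other, which was not tested.

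Other members of the list differed less or went the other way. DDX51, which acts in maturation of the large subunit, had 1650, 1923 and 2303 by probe PH_hs_0030306, and 2547, 1774 and 2469 by probe PH_hs_0048247. Its probes were at 0.26 and 0.48 in the YAPsi comparison, but at 0.22 and -0.52 in the plasmid comparison, a gap of 0.74 beside the 95% limit of 0.72. Without scaling the second probe was at -0.07 in the YAPsi comparison, where all probes shifted by -0.53. DHX33 had 2591, 3218 and 2810 by one probe and 13436, 16674 and 16538 by the other. Both probes were at 0.31 in the plasmid comparison. The probes of DDX24, DDX27, DDX31, DDX49, DDX52, DDX54, DDX55, DHX37 and the measured one of DDX56 lay between -0.27 and 0.11 in the YAPsi comparison.

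Among the helicases that act as partners of transcription and splicing factors, 7 of 8 probes lay below 0 in the YAPsi comparison, with a median of -0.14. Over all helicases these values were 37 of 52 and -0.11, and over all probes 47.8% and 0.02, and with 8 probes the list cannot be set apart from the other helicases. DDX5, a coregulator of several transcription factors known as p68, had 50342, 49531 and 35109 by probe PH_hs_0014403. By probe PH_hs_0049450 it had 1731, 1485 and 1942. The first probe was lowest and the second highest in the library labelled DDX3+YAPsi, and they stood at -0.50 and 0.39 in the YAPsi comparison. That gap of 0.88 lies beyond the 95% limit of 0.67 over all genes with 2 measured probes, so no direction can be given for DDX5.

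DHX9, also called RNA helicase A, had 56770, 45380 and 42012, with differences of -0.32 in the plasmid and -0.43 in the joint comparison, so the vector library was highest. DDX17, the paralog of DDX5, had 55420, 71810 and 66261 and was lowest in the vector library, with differences of 0.37 in the plasmid comparison and -0.12 in the YAPsi comparison. DDX20, the Gemin3 subunit of the SMN complex that assembles spliceosomal particles, had 1260, 1571 and 1095. It was at 0.32 and -0.52 in the same comparisons, the order of libraries seen for DDX47, and it too was named for its YAPsi difference. DDX1, part of the tRNA ligase complex, stayed between 40867 and 44727.

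The spliceosomal helicases drive the rearrangements of the splicing cycle. Of 9 genes on the array 8 were measured, by 10 probes. In the plasmid comparison 7 of the 10 lay below 0 (51.2% of all), with a median of -0.09, and in the YAPsi comparison 5 lay on each side (47.8% of all below). DHX16, known from yeast as Prp2, which acts just before the first step, had 1115, 2033 and 1688. It was 1.82-fold higher in the plasmid comparison (0.87) and at 0.60 in the joint comparison, and without scaling this last value was -0.14, beside a shift of all probes of -0.72. It rests on 1 probe.

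DDX23, known from yeast as Prp28, had 26940, 20313 and 19526, with differences of -0.41 and -0.46 from the vector library. DDX41, mutated in familial myeloid neoplasms, had 1376, 1022 and 1052 by probe PH_hs_0028068, with -0.43 and -0.39. Its other probe, PH_hs_0039850, had 490, 261 and 284 and reached the floor in the vector library alone. The measured probe of DDX41 and that of DDX23 thus placed the vector library above the others. Probe PH_hs_0039850 passed the floor only where it was high, so its order adds no support. DHX35 had 488, 315 and 265 and also reached the floor in the vector library alone. DHX15, DHX38, DDX42, DDX46 and DHX8 lay between -0.18 and 0.23 in the plasmid comparison.

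The export helicases were covered by 3 measured genes. DDX19A, which releases mRNA at the nuclear pore, had 1931, 1996 and 1308, a difference of -0.61 in the YAPsi comparison. Its near-identical neighbour DDX19B had 3740, 4120 and 3553 and differed by -0.21. Probes of this pair may bind RNA of both, which was not tested. DDX39A had 16553, 21437 and 20912 and was lowest in the vector library, with 0.37 and 0.34.

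In the list of translation, decay and quadruplex unwinding, 4 of 5 measured probes lay above 0 in the plasmid comparison (median 0.39, with 48.8% of all probes above 0) and in the joint comparison (median 0.44, with 52.4% of all), which share the vector library. The 5 probes stand for 3 genes, and without scaling no helicase probe lay above 0 in the joint comparison. DDX6, which represses mRNA translation and promotes decapping, had 16148, 21433 and 21890 by probe PH_hs_0049199 and 446, 412 and 650 by probe PH_hs_0023351. Its first probe was lowest in the vector library, by 0.41 and 0.44. The second was near the floor in the vector library and the library labelled DDX3, and stood at 0.66 in the YAPsi comparison, where the first stood at 0.03. Without scaling it was at 0.11 there, and at -0.20 instead of 0.54 against vector.

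DHX34, a factor of nonsense-mediated decay, had 720, 855 and 849 by one probe and 1723, 2263 and 2397 by the other. Both probes were lowest in the vector library, with 0.25 and 0.39 in the plasmid comparison. DHX36, which unwinds G-quadruplexes, had 940, 1274 and 916 and was highest in the library labelled DDX3, at 0.44 and -0.48. DHX29, which helps ribosomes scan structured leaders, was below the floor in all libraries.

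Of the cytoplasmic RNA sensors, DHX58 (LGP2) alone was measured, at 1515, 1354 and 1497, and its differences were between -0.16 and 0.14. DDX58 (RIG-I, now RIGI) lay about at the floor, with 405, 354 and 374 by one probe and 314, 377 and 397 by the other, and only the first of these values reached it. DDX60 and all 3 probes of DDX60L were below it. The mitochondrial helicases were both measured. DDX28, which takes part in assembly of the mitochondrial ribosome, had 5859, 5844 and 4371 and was at -0.42 in both the YAPsi and the joint comparison, and DHX30 stayed between 8326 and 9238.

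The remaining members were DHX40, DHX32, DDX59, DHX57 and DDX26B. DDX26B, now INTS6L, is a member by its old symbol alone and is not taken here as a known helicase. It stays in the counts because members were set by symbol. DHX40 had 15458, 20621 and 17736, with 0.42 in the plasmid comparison and -0.22 in the YAPsi comparison. DDX59 had 2729, 2443 and 2085, with -0.16 and -0.23, and DHX32 stayed between 4475 and 4709. DHX57 reached the floor in the library labelled DDX3 alone, by 1 of its probes, at 470.

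**Figure D3:**
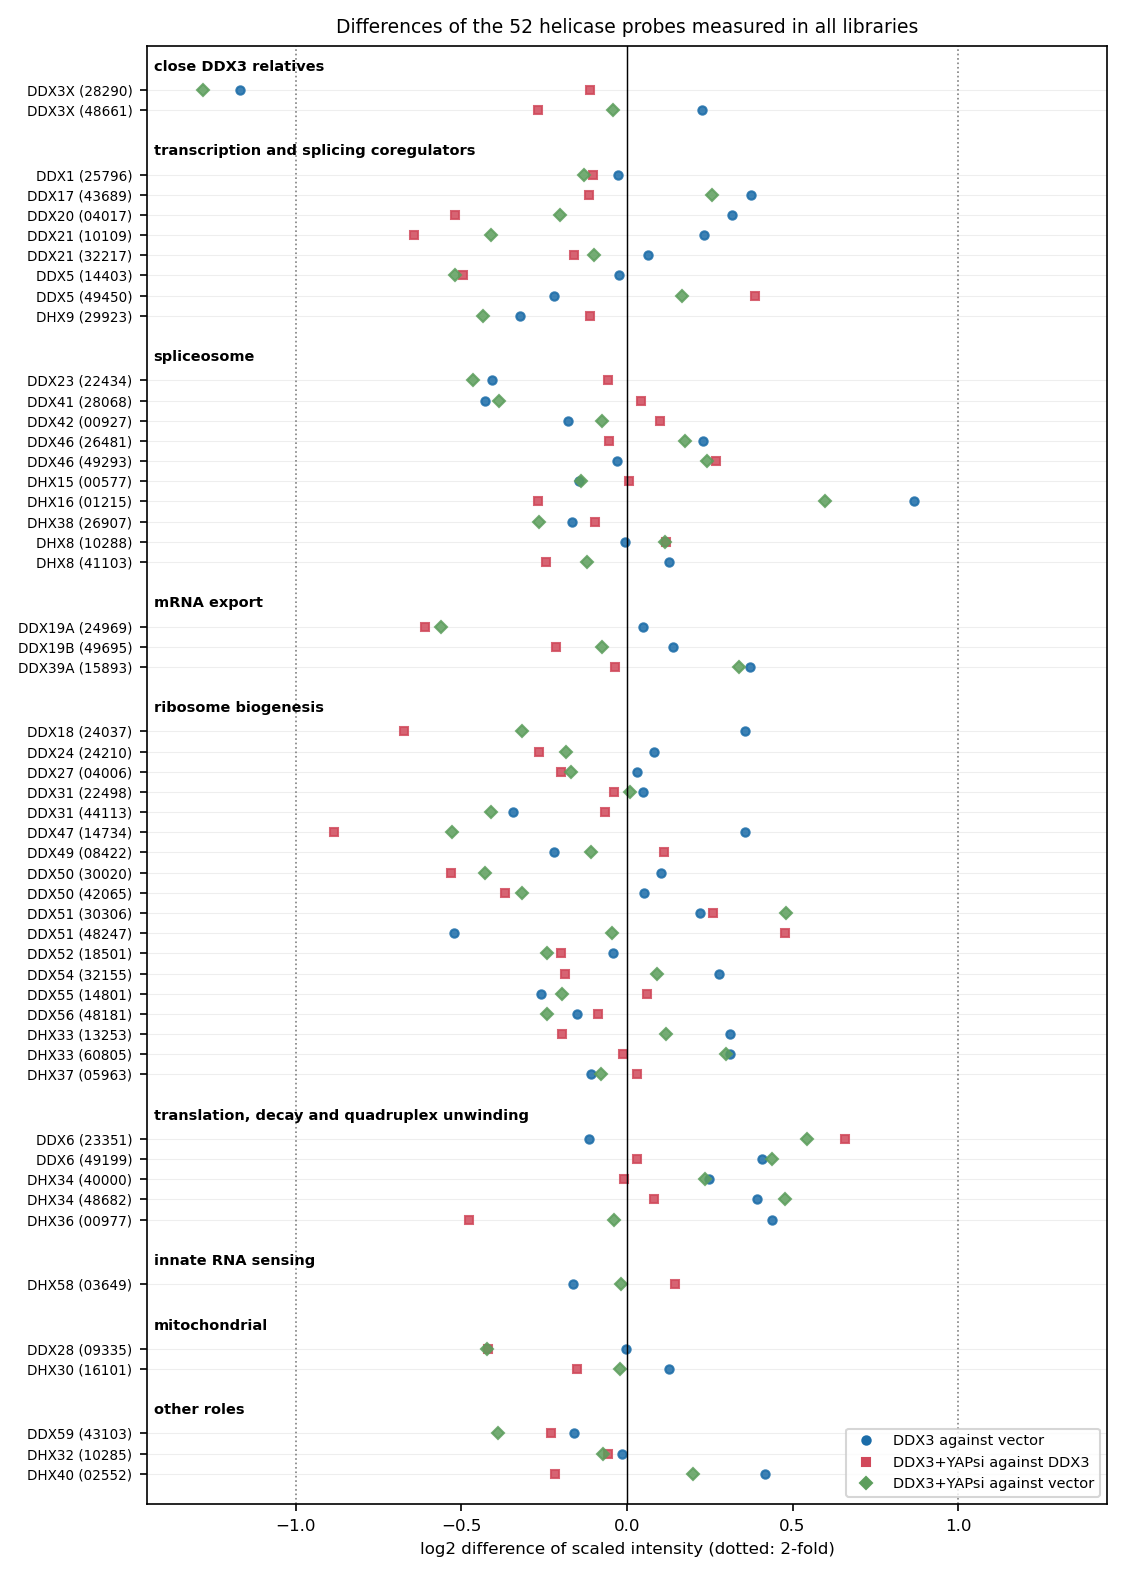
Log2 difference of scaled intensity for each of the 52 helicase probes measured in all libraries, grouped by role, with the last digits of the probe in brackets; each probe is shown under the first of its lists, so DDX21 stands with the coregulators. Points mark the plasmid, squares the YAPsi and diamonds the joint comparison; past the dotted lines at 2-fold lies DDX3X probe PH_hs_0028290 alone, at -1.17 and -1.28.

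Among the helicases, 11 genes had 2 measured probes, which gives the only repeat measurement within a library. In the plasmid comparison the probes had opposite signs in 6 of the 11 genes, beside 39.8% of all genes with 2 measured probes. In the YAPsi comparison this was so in 4, DDX5, DDX46, DHX34 and DHX8, beside 34.5% of all. The median gap was 0.20 and 0.22 in these comparisons, close to the 0.23 and 0.21 over all genes. In the plasmid comparison both probes of DDX5, DDX21, DDX50, DHX33 and DHX34 shared a sign, with gaps of 0.20, 0.17, 0.05, 7.1e-04 and 0.15.

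**Figure D4:**
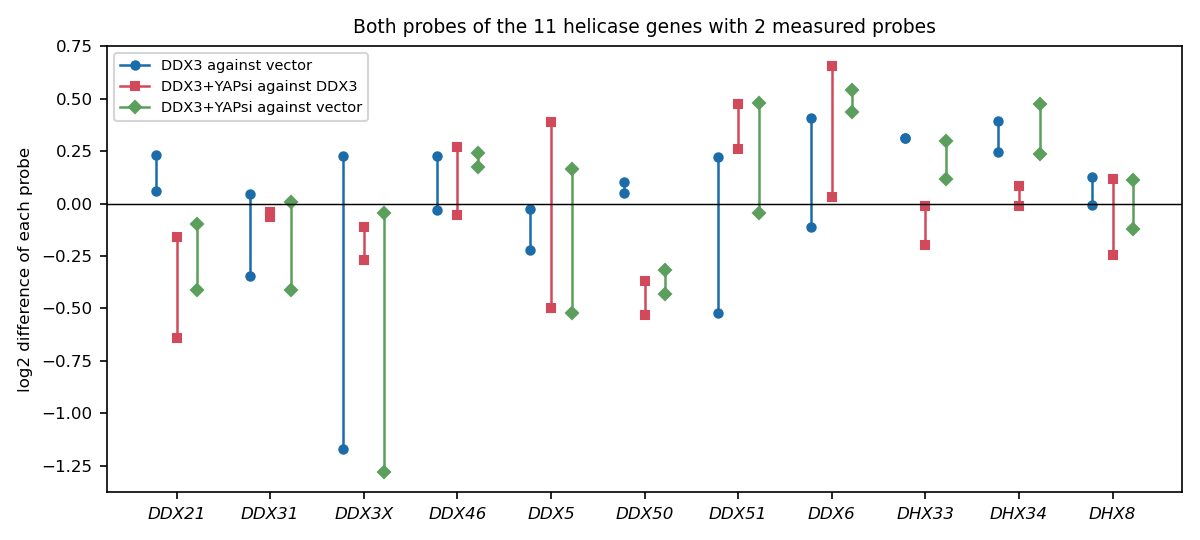
Log2 difference of both probes of the 11 helicase genes with 2 measured probes, joined by a line, for each comparison. The longest lines are those of DDX3X against vector (gaps of 1.39 and 1.24), followed by DDX5 in the YAPsi comparison (0.88).

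RNA helicases with other names were listed as well, 26 symbols in all, of which 20 genes were on the array with 25 probes. In the YAPsi comparison, 17 of 19 measured probes lay below 0 (47.8% of all), with a median of -0.17 beside 0.02 over all probes. They include EIF4A3, the helicase of the exon junction complex, at -0.46, and SKIV2L2, the helicase of the nuclear exosome, at -0.50. UPF1, the helicase of nonsense-mediated decay, was the largest exception, with 18798, 16793 and 25113 and a difference of 0.58. In the plasmid comparison 13 of 20 lay above 0 (48.8% of all), with a median of 0.12. HELZ stood at 0.59 there by probe PH_hs_0022241, with 2161, 3244 and 3113, and at 0.29 by probe PH_hs_0039390, with 380, 465 and 433. The second of these probes lay just above the floor of 378 in the vector library. AQR, a spliceosomal helicase, was lowest in the library labelled DDX3+YAPsi, at -0.69 and -0.27 against vector by its probes, and EIF4A2, a translation initiation helicase, was at -0.54 and -0.17.

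Because the deposited intensities were not on a common level, the direction of a small difference depends on the scaling. Without scaling all measured probes shifted by -0.20, -0.53 and -0.72 in the plasmid, YAPsi and joint comparisons. The helicase median lay below the median of all probes by a difference of -0.13 in the YAPsi comparison under the 75th percentile, the median and no scaling, and of -0.09 under quantile and loess centring. In the joint comparison these values were -0.11 and -0.09, and in the plasmid comparison they were 0.05 and 0.06. The 75th percentile, the median and no scaling give the same value by construction, because each moves all differences of a comparison alike. Only quantile and loess centring could change it. Below 0 in the YAPsi comparison lay 37 of the 52 probes by the 75th percentile, 38 by quantile normalization, 38 by loess centring, 44 by the median and 51 without scaling. The median of all measured probes was 0.02, -4.7e-04, -0.01, -0.09 and -0.53 in the same order. The counts of 44 and 51 thus come with a downward shift of all probes. The share of all probes below 0 was 47.8% by the 75th percentile and was not counted in the other settings.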

How the data were processed

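The deposited table holds probe intensity on a linear scale for 3 samples, 1 in each group. What the authors did for background correction, scaling and the combination of the 2 technical replicates is not stated in the labels. Deposited medians were 469, 414 and 305 for vector, DDX3 and DDX3+YAPsi, so each library was multiplied by a factor (0.806, 0.922 and 1.35) that gave a common 75th percentile, and log2 was taken.

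Probes were named from the platform annotation, and symbols were set against RefSeq (51 of 53 current, 2 found as synonyms). Probes with several symbols (1002) or none (6081) were left out. The floor was the 50th percentile, thresholds were 2-fold and 1.5-fold, and nothing was tested because each group has 1 sample. Members and role lists were chosen with earlier results of these data known. Full values are given for DDX3X, DDX5 and DHX9, for probes with a difference of at least 0.5 and for the members with the largest differences of each list; for DDX3Y only its place below the floor is given. The steps were tested on simulated data, with changes added only to probes well above the floor and with an assumed level of noise. Only recovery of the largest changes and a small median bias were required. That test therefore does not cover small differences or probes near the floor. Python 3.11.15, pandas 2.3.3 and statsmodels 0.14.6 were used. Alternatives were other scalings, floors, the fold threshold and gene values in place of probes.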

Additional observations from a re-analysis of the deposited data

How the results depend on the processing

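Scaling, the floor, the fold threshold and the unit of counting were varied. Without scaling, the count of helicase probes at least 2-fold lower was 8 in the YAPsi and 15 in the joint comparison. The helicase medians were -0.65 and -0.83, as the shift of all probes was -0.53 and -0.72. The share of all probes at least 2-fold lower was not counted without scaling, so the 8 and 15 are no result about the helicases. DDX3X probe PH_hs_0028290 was then at -0.66 and -2.02, and probe PH_hs_0048661 at -0.81 and -0.78. With a floor at the 75th percentile, with gene means and with the brightest probe, 0 probes or genes were at least 2-fold lower in the plasmid and joint comparisons, because DDX3X probe PH_hs_0028290 is then left out or averaged. At 1.5-fold, 1 probe was higher in each comparison and 4 were lower in the YAPsi comparison. Of 30 differences of the named probes, all 30 moved by less than the spread of a single probe (0.24, 0.22 and 0.27 in the plasmid, YAPsi and joint comparisons, from gaps between probes of 1 gene) under median scaling, quantile normalization and loess centring, with 1 change of sign, that of the DDX5 probe PH_hs_0014403 near 0 in the plasmid comparison under quantile normalization. Without scaling 20 moved by more than that spread and 5 changed sign. The sign changed for DDX19A and DDX50 in the plasmid, DDX51 in the YAPsi, and DDX6 and DHX16 in the joint comparison. Median scaling moved all probes of a comparison by the same amount, 0.01, 0.11 and 0.12 in the plasmid, YAPsi and joint comparisons. Leaving out scaling also moves them all alike. In both settings the 30 differences are thus no separate checks of each probe. No paired analysis was possible because each group has 1 sample. Signal over background could not be judged from the deposited values, and the small number of arrays limits all of them.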
